A study of Canis lupus familiaris with 9 samples.

Results

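The genes described here are 55 genes of the unfolded protein response and of the amino acid response, listed as textbook members of both pathways. The list and its role groups were chosen with earlier results of these data known. Of the 55, 54 were found as single gene symbols in the array's annotation, out of 15947 named genes, with the brightest probe set, by mean of the 9 arrays, standing for each gene. ATF5 had no entry and was not analysed here. RNA levels were measured in 9 untreated dog (Canis lupus familiaris) cultures, each hybridized to a separate Affymetrix array, in 3 groups of 3. SKN cells were labelled as neural precursors from adult skin and were kept free of serum and fed B-27, EGF and FGF, initially as neurospheres. Brain cells were labelled as neural precursors grown from brain, in a medium that the labels used here do not describe. Fibroblast cells were grown from skin in medium with fetal bovine serum. Medium and cell type therefore cannot be told apart in any comparison. The labels do not say whether the 3 cultures of a group came from separate dogs, so a p-value measures only the spread between these cultures, which may be technical.

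Cells that fill their endoplasmic reticulum with unfolded protein sense it through the membrane proteins PERK (gene EIF2AK3), IRE1 (ERN1) and ATF6. PERK and its sister kinases phosphorylate the initiation factor eIF2, which slows protein synthesis in general and favours translation of ATF4, the transcription factor that switches on amino acid synthesis, amino acid carriers and tRNA ligases. The same eIF2 step answers a shortage of amino acids, so that ATF4 targets read both kinds of stress. IRE1 splices the XBP1 transcript, and spliced XBP1 and cleaved ATF6 switch on the chaperones and disposal machinery of the endoplasmic reticulum. Much of this signalling is set by translation, splicing and cleavage, which an RNA array of this kind does not read. Cells that secrete much collagen, fibroblasts among them, rely on these chaperones to fold it.

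Values are log2 signals as deposited, where a difference of 1 unit is 2-fold, and the 9 array medians lay between 4.71 and 4.79. A gene was called when its adjusted p from limma, over all 32205 probe sets, was under 0.05. Each difference between groups of 3 arrays is given ± its standard error (SE) from that model. The table holds no detection calls. Markers were read in the same arrays to check the labels. NES, an intermediate filament of precursors, read 6.89, 6.29 and 6.82 in SKN, 8.73, 8.31 and 7.96 in Brain and 6.63, 6.86 and 6.48 in Fibroblast, while FABP7, a marker of radial glia, read 2.07 to 2.35 in the Brain arrays and at most 2.62 in any array. In SKN 0 of 8 measured neural precursor markers were higher than in Fibroblast. In Brain 1 of 8 was higher than in Fibroblast (NES) and 7 of 8 neural crest and Schwann cell markers were higher. These crest markers included CDH19, at 10.79, 11.20 and 11.20 in Brain. Most neural precursor markers did not set SKN or Brain apart from Fibroblast. Fibroblast matrix markers averaged 11.02, 10.75 and 10.81 in SKN and 10.70, 10.67 and 10.38 in Fibroblast, with 0 of 10 called between them. Of 7 neuron markers 2 were called higher in SKN than in Fibroblast and 0 lower, and of 6 astrocyte markers 1 and 0. Over all named genes 2.45% were called higher there. In Brain against Fibroblast 1 of the 7 neuron markers was called higher and 0 lower, and of the 6 astrocyte markers 1 and 1. The highest neuron marker difference from Fibroblast was 5.285 in Brain and 3.911 in SKN. Markers of leukocytes, epithelium and endothelium averaged at most 4.01 on any array. Some arrays stood apart within their groups. The crest list averaged 5.39 in Fibroblast 1, against 4.28 and 4.13 in Fibroblast 2 and 3. The fibroblast matrix list averaged 6.78 in Brain 3, against 5.02 and 5.05 in Brain 1 and 2. The cell cycle list averaged 7.54 in SKN 1, against 4.44 and 5.12 in SKN 2 and 3.

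The stress genes were lowest in the Brain cultures, in both arms of the response. SKN gave few calls against Fibroblast, and its stress effectors averaged 6.78, 6.87 and 7.12, between the 5.72, 5.69 and 5.58 of Brain and the 7.66, 8.01 and 7.70 of Fibroblast. Averaged over the 54 genes, the signal was 8.40, 8.44 and 8.60 in the SKN arrays, 7.71, 7.50 and 7.62 in the Brain arrays and 8.71, 8.81 and 8.64 in the Fibroblast arrays. No SKN or Fibroblast array came as low as any Brain array. Brain had the lowest group mean for 48 of the 54 genes (88.9%), against 43.5% of all named genes. Fewer cells with high levels and less RNA per cell cannot be told apart in such bulk samples.

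Between Brain and Fibroblast 40 of the 54 genes were called lower in Brain, where 13.2% of all named genes were, and 1 was called higher, where 13.8% were. The median difference was -0.94 over the 54 genes and -0.06 over all named genes. In 43 of the 54 genes all Brain arrays lay below all Fibroblast arrays, as did 23.5% of named genes. Between SKN and Brain 29 of 54 were called higher in SKN (background 10.9%) and 1 lower (background 11.7%), with a median difference of 0.66 against 0.01 over all named genes. All SKN arrays lay above all Brain arrays for 42 of the 54, against 20.2% of named genes. These comparisons share the Brain arrays and are not independent of each other. Because the genes were chosen with earlier results of these data known, counts beside the background describe the list and do not test it. Between SKN and Fibroblast 4 of 54 were called lower in SKN (background 2.10%) and 0 higher (background 2.45%), with 17 at an unadjusted p under 0.05 in limma. Over all named genes 3197 of 15947 had such a p. All SKN arrays lay below all Fibroblast arrays for 24 of the 54 genes, against 15.0% of named genes. Of the 4 called genes only STC2 was still called without Fibroblast 2, Fibroblast 3, SKN 1 or SKN 2, while 2 of the 4 were called without Fibroblast 1, Brain 2, Brain 3 or SKN 3, and 3 without Brain 1. Single removals also added a call of DDIT3 (without Fibroblast 3), EDEM1 (without Fibroblast 1) or AARS1 (without Brain 1). A test for any difference among the 3 groups called 40 of 54 genes, against 28.3% of named genes. In 27 of these 40 the SKN mean lay above the Brain mean and below the Fibroblast mean. Called or not, 31 of the 54 genes and 4266 of all 15947 named genes had this order. The reverse order was not counted.

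**Figure D1:**
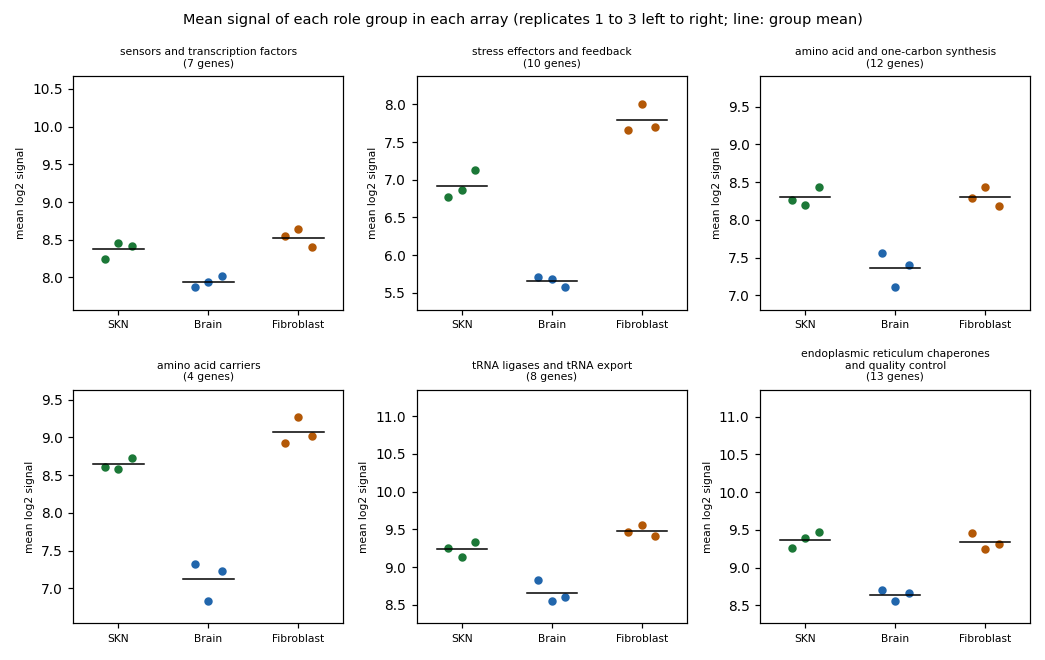
Mean log2 signal (vertical axis) of the members of each of 6 role groups in each array; points are arrays, replicates 1 to 3 from left to right within a group, and the line is the mean of the 3 arrays. Every panel spans the same number of log2 units. In all 6 panels the 3 Brain arrays lie below the SKN and Fibroblast arrays, and SKN lies below Fibroblast most clearly for stress effectors and for amino acid carriers.

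Of the 24 genes of amino acid synthesis, carriage and tRNA charging, grouped as targets of ATF4, 17 were called lower in Brain than in Fibroblast and 0 higher, with a median difference of -0.94. Of the 13 chaperones and quality control genes of the endoplasmic reticulum, 9 were called lower and 0 higher, with a median of -0.80. SKN exceeded Brain by a median of 0.61 in the first set and of 0.65 in the second, with 13 of 24 and 8 of 13 called. Over all named genes 13.2% were called lower in Brain than in Fibroblast and 10.9% higher in SKN than in Brain. These shares also stand beside the role groups below. Between SKN and Fibroblast the medians of the sets were -0.17 and 0.04. All SKN arrays lay below all Fibroblast arrays for 12 of the 24 ATF4 targets. The same held for 1 of the 13 chaperone and quality control genes, and for 15.0% of named genes. Whether the difference between the sets is larger than chance was not tested.

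**Figure D2:**
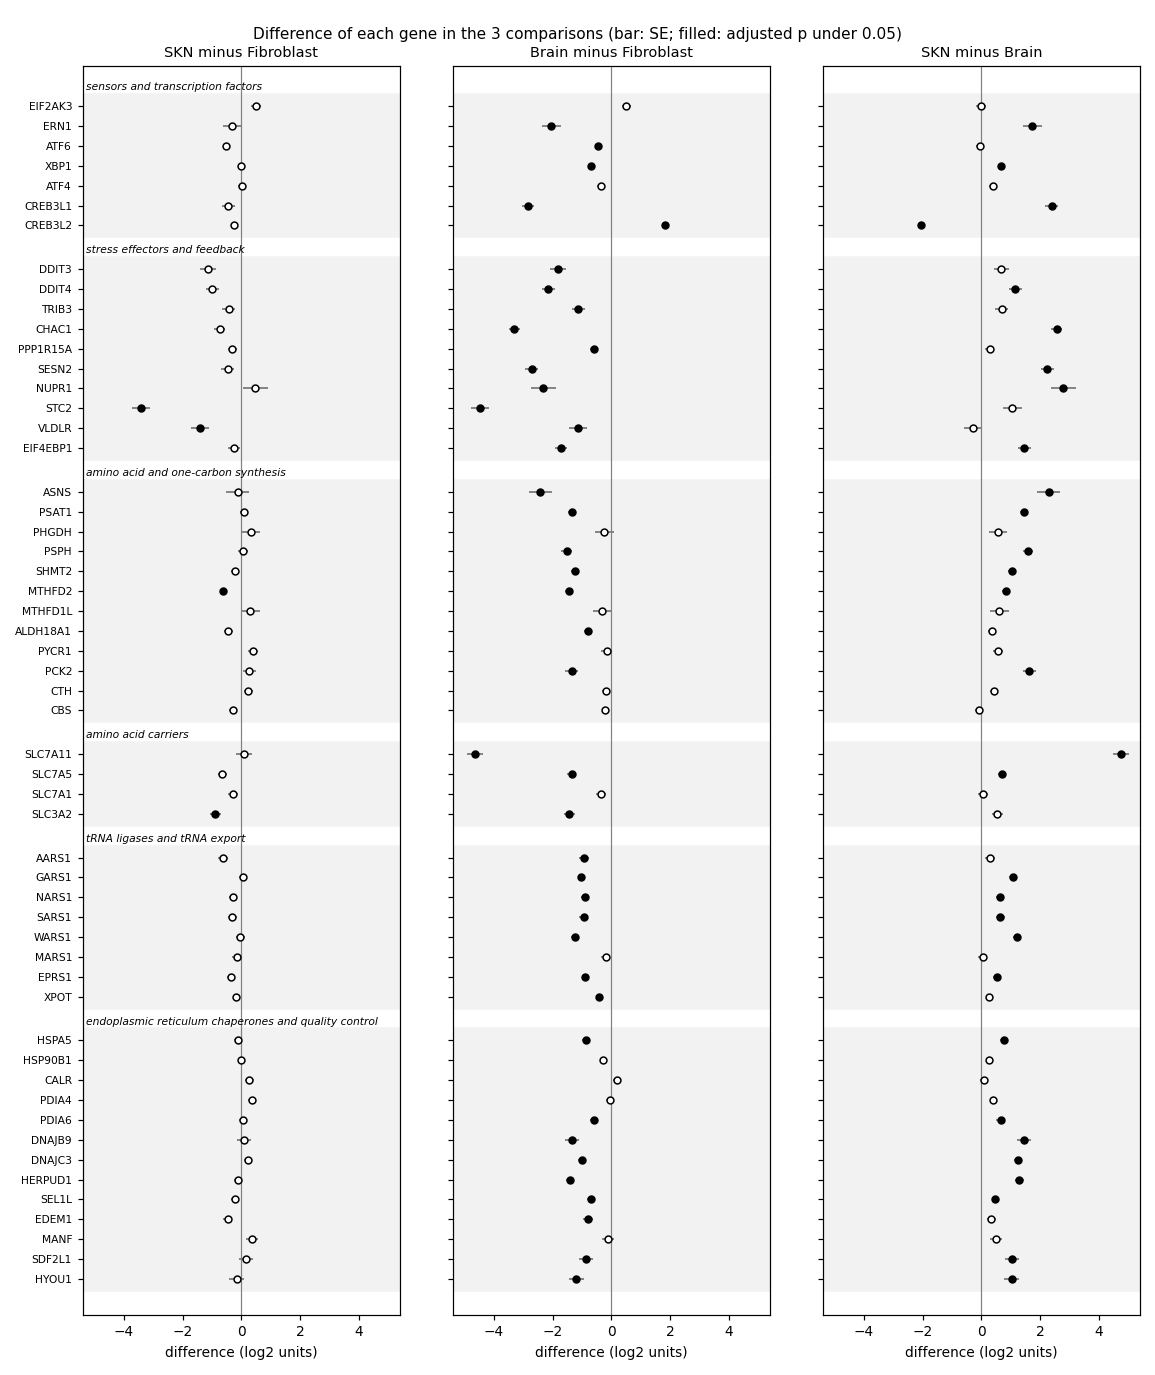
Difference in log2 units (horizontal axis) of each of the 54 genes, grouped by role, in SKN minus Fibroblast, Brain minus Fibroblast and SKN minus Brain. Bars are the SE of the fit and filled points have an adjusted p under 0.05. The middle panel holds 40 filled points left of 0 and 1, CREB3L2, right of it, whereas the left panel holds 4 filled points.

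Among sensors and transcription factors 4 of 7 were called lower in Brain than in Fibroblast (57.1%) and 1 higher (14.3%). Over all named genes 13.2% were lower and 13.8% higher, so the share called higher is near that of all genes. ERN1, which encodes IRE1, the sensor that splices XBP1, read 6.38, 7.63 and 7.20 in SKN, 5.34, 5.30 and 5.39 in Brain and 7.48, 7.79 and 6.90 in Fibroblast. All Brain arrays lay well below the other 6 arrays, with a difference of -2.05 ± 0.32 from Fibroblast (adjusted p 0.00297) and of 1.73 ± 0.32 for SKN over Brain (adjusted p 0.00753). XBP1, whose transcript IRE1 splices, read 8.91, 8.86 and 8.78 in SKN, 8.25, 8.09 and 8.18 in Brain and 8.92, 8.94 and 8.78 in Fibroblast, with Brain again below all other arrays. The array does not tell the spliced form from the unspliced one. XBP1 in Brain differed by -0.71 ± 0.10 from Fibroblast, and XBP1 in SKN by 0.68 ± 0.10 from Brain and by -0.03 ± 0.10 from Fibroblast.

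EIF2AK3, which encodes the kinase PERK, read 7.49, 7.56 and 7.62 in SKN, 7.31, 7.96 and 7.47 in Brain and 7.02, 7.04 and 7.14 in Fibroblast. Its lowest readings were in Fibroblast, below every Brain array, but the difference of 0.51 ± 0.16 was not called (adjusted p 0.0555). Of the 9 removals of 1 array only that of Brain 1 made it a call (adjusted p 0.0268), as did array weights (0.0366), equal medians (0.0496) and a filter that dropped probe sets of low mean (0.0332). ATF6 read 9.29, 9.65 and 9.75 in the SKN arrays, 9.72, 9.62 and 9.55 in the Brain arrays and 10.05, 10.05 and 10.13 in the Fibroblast arrays. It was called lower in Brain than in Fibroblast (-0.44 ± 0.13, adjusted p 0.0447). That call ended in 7 of the 9 removals of 1 array, all but those of SKN 1 and SKN 3 (adjusted p up to 0.128), and with quantile normalization (0.0646) or equal medians (0.0543). All SKN arrays of ATF6 also lay below all Fibroblast arrays. That difference, -0.51 ± 0.13, was not called (adjusted p 0.0804), though SKN had the lowest group mean. Every Brain and SKN reading of ATF6 thus lay below every Fibroblast reading, though only the Brain difference was called and that call was unstable.

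ATF4 itself was not called in any comparison. ATF4 read 11.17, 10.88 and 11.02 in the SKN arrays, 10.40, 10.73 and 10.77 in the Brain arrays and 11.01, 11.14 and 10.85 in the Fibroblast arrays. All Brain arrays lay below all Fibroblast and SKN arrays, at -0.37 ± 0.14 from Fibroblast (adjusted p 0.103). For SKN over Brain the ATF4 difference was 0.39 ± 0.14 (adjusted p 0.102). Between SKN and Fibroblast it was 0.02 ± 0.14, with a 95% confidence interval of -0.30 to 0.34. Its protein, which is set by translation, was not measured.

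The related membrane-bound factors CREB3L1 and CREB3L2, which are cut in the Golgi like ATF6 and act in secretory cells, went opposite ways. CREB3L1, which in mice drives collagen expression in bone, read 7.07, 7.10 and 6.96 in SKN, 4.55, 4.28 and 5.13 in Brain and 7.50, 7.75 and 7.22 in Fibroblast. Brain was lower than Fibroblast (-2.84 ± 0.22, adjusted p 0.000105), and within Brain the highest reading was in Brain 3, the array with the highest matrix list. CREB3L2, which in mice serves secretion in cartilage, read 7.43, 7.56 and 7.63 in SKN, 9.54, 9.60 and 9.70 in Brain and 7.83, 7.81 and 7.77 in Fibroblast. It was the only one of the 54 genes called higher in Brain, by 1.81 ± 0.10 over Fibroblast (adjusted p 1.65e-05), and SKN differed from Brain by -2.07 ± 0.10. The 9 readings of CREB3L2 fell in narrow groups with no overlap between Brain and the rest. Without Brain 3 the differences of CREB3L1 and CREB3L2 kept their directions and their calls.

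**Figure D3:**
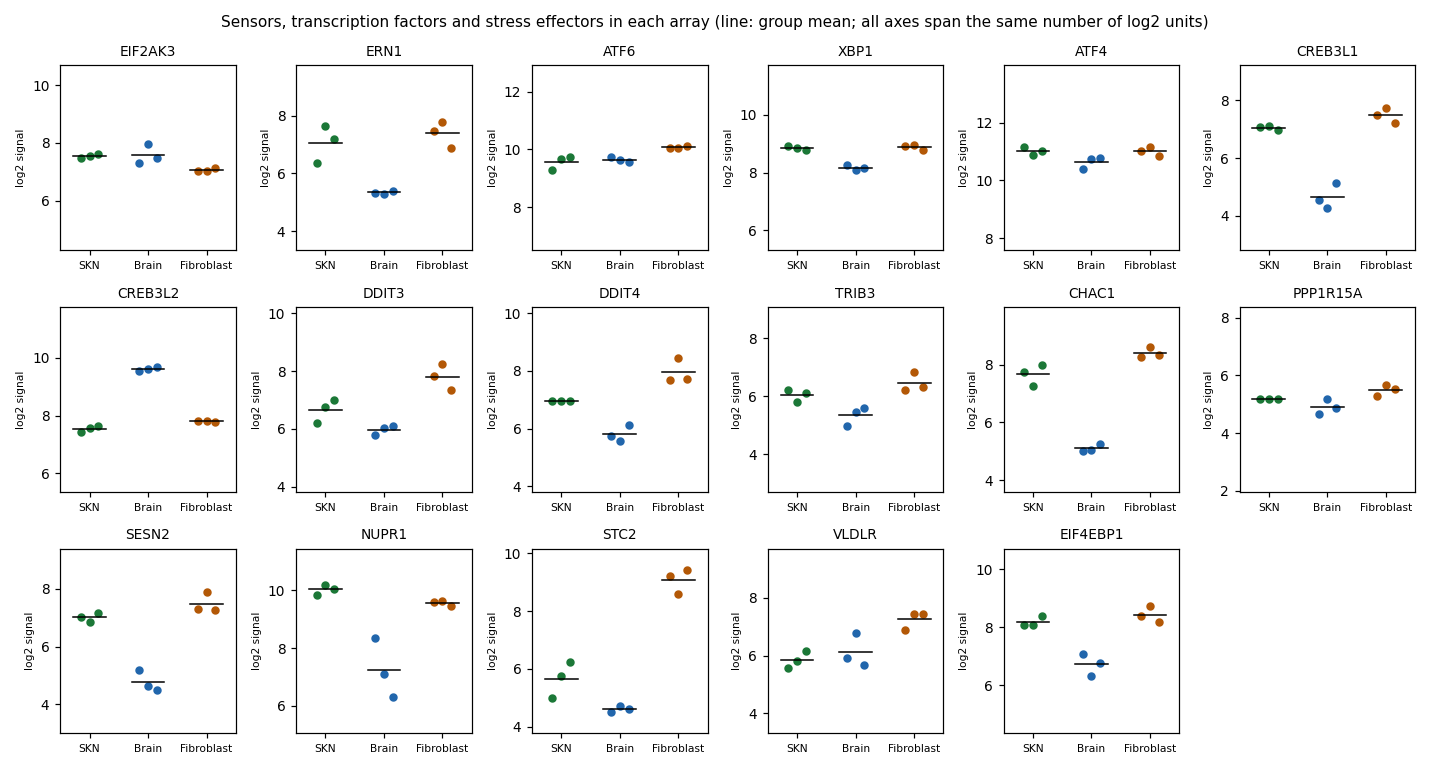
Log2 signal (vertical axis) of the 7 measured sensors and transcription factors and the 10 stress effectors in each array, replicates 1 to 3 from left to right within a group; the line is the mean of 3 arrays, and all axes span the same number of log2 units. CREB3L2 stands alone with its high Brain arrays, STC2 is high in Fibroblast alone, and CHAC1, SESN2 and NUPR1 are low in Brain alone.

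All 10 stress effectors and feedback genes were called lower in Brain than in Fibroblast, with a median difference of -1.98. Between SKN and Brain 5 were called higher in SKN and 0 lower, and between SKN and Fibroblast 2 were called lower in SKN (STC2 and VLDLR) and 0 higher. CHAC1, an enzyme that degrades glutathione and a strong ATF4 target, read 7.74, 7.26 and 7.99 in SKN, 4.99, 5.04 and 5.25 in Brain and 8.27, 8.60 and 8.34 in Fibroblast. Brain was lower than Fibroblast (-3.31 ± 0.19, 9.89-fold, adjusted p 2.55e-05), and SKN exceeded Brain by 2.56 ± 0.19. The SKN readings of CHAC1 lay just under those of Fibroblast without overlap (-0.74 ± 0.19), which was not called (adjusted p 0.0804, and 0.0495 with the filter on low probe sets).

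SESN2, a leucine-binding restrainer of mTORC1 signalling, read 7.02, 6.85 and 7.16 in SKN, 5.18, 4.65 and 4.49 in Brain and 7.30, 7.89 and 7.25 in Fibroblast. The Brain arrays were separate from all others, at -2.71 ± 0.23 from Fibroblast and 2.24 ± 0.23 for SKN over Brain. NUPR1, a small stress-induced chromatin protein, read 9.84, 10.20 and 10.05 in SKN, 8.33, 7.09 and 6.29 in Brain and 9.58, 9.62 and 9.46 in Fibroblast. It was the effector with the widest spread in Brain, and its SKN readings were all above those of Fibroblast. SKN exceeded Brain in NUPR1 by 2.79 ± 0.42 (adjusted p 0.0028), and the difference from Fibroblast, 0.47 ± 0.42, was not called.

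DDIT4, an inhibitor of mTORC1, read 6.95, 6.95 and 6.97 in SKN, 5.73, 5.57 and 6.12 in Brain and 7.67, 8.46 and 7.73 in Fibroblast. The 3 groups formed 3 steps without overlap, with Brain at -2.14 ± 0.22 from Fibroblast. SKN was at -0.99 ± 0.22 from Fibroblast, which was not called (adjusted p 0.0536, and 0.0324 with the filter on low probe sets). DDIT3, which encodes the pro-apoptotic factor CHOP, showed the same order with 6.21, 6.76 and 6.99 in SKN, 5.80, 6.03 and 6.10 in Brain and 7.81, 8.24 and 7.34 in Fibroblast. Brain was lower (-1.82 ± 0.26, adjusted p 0.00192) and SKN differed by -1.14 ± 0.26 (adjusted p 0.0566, 0.0343 with that filter and 0.048 without Fibroblast 3). TRIB3, a pseudokinase that restrains ATF4 and AKT, read 6.21, 5.79 and 6.10 in SKN, 4.95, 5.46 and 5.60 in Brain and 6.22, 6.83 and 6.32 in Fibroblast. The Brain difference of TRIB3 from Fibroblast was called (-1.12 ± 0.22), and that for SKN over Brain (0.70 ± 0.22) was called without Fibroblast 2 (adjusted p 0.0499) and not with all arrays.

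STC2, a secreted glycoprotein induced by ATF4, had the largest difference of the 54 genes between SKN and Fibroblast. STC2 read 4.99, 5.76 and 6.24 in the SKN arrays, 4.50, 4.72 and 4.62 in the Brain arrays and 9.20, 8.61 and 9.43 in the Fibroblast arrays. Its Fibroblast readings stood apart from those of both other groups, with SKN lower (-3.42 ± 0.32, 10.7-fold, adjusted p 0.00126) and Brain also (-4.47 ± 0.32, adjusted p 6.83e-05). All 3 Brain readings of STC2 lay below the medians of their arrays, as did those of CREB3L1 in Brain 1 and 2 and of SESN2 in Brain 2 and 3, so these differences are ones of signal near the low end. SKN minus Brain (1.05 ± 0.32) was called in STC2 without SKN 1 (adjusted p 0.0105) and not with all arrays. The call of STC2 between SKN and Fibroblast was the only one of the 4 that held in all 9 removals of 1 array. VLDLR, a lipoprotein receptor induced by ATF4 in human and mouse cells, read 5.57, 5.83 and 6.18 in SKN, 5.92, 6.80 and 5.68 in Brain and 6.88, 7.45 and 7.44 in Fibroblast, high in Fibroblast and overlapping between SKN and Brain. SKN was lower than Fibroblast (-1.40 ± 0.30, adjusted p 0.0482), a call kept without Brain 2 or Brain 3 and lost in the other 7 removals (adjusted p up to 0.151). Brain was lower (-1.12 ± 0.30), a call lost without Fibroblast 2, Fibroblast 3, Brain 1 or Brain 3 (up to 0.101).

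EIF4EBP1, the brake on cap-dependent translation that ATF4 induces, read 8.07, 8.07 and 8.38 in SKN, 7.08, 6.32 and 6.75 in Brain and 8.37, 8.72 and 8.19 in Fibroblast. Brain was lower than Fibroblast (-1.71 ± 0.22), and SKN exceeded Brain by 1.46 ± 0.22. PPP1R15A, or GADD34, which directs dephosphorylation of eIF2, read 5.18, 5.18 and 5.18 in SKN, 4.66, 5.18 and 4.87 in Brain and 5.29, 5.68 and 5.52 in Fibroblast. Its Brain minus Fibroblast difference of -0.59 ± 0.15 was called (adjusted p 0.0264), and the call ended without Fibroblast 2, Fibroblast 3, Brain 1 or Brain 3 (up to 0.083). The 3 SKN values of PPP1R15A were identical to the last digit deposited, as were those of XPOT. Of the 54 genes 6 carried 1 value on several arrays, as did 34.9% of named genes. In XBP1, SLC7A11 and AARS1 the equal values lay in different groups. Where they lie within a group, the spread can be understated.

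In amino acid and one-carbon synthesis 7 of 12 enzymes were called lower in Brain than in Fibroblast and 0 higher, and SKN was called higher than Brain for 6 and lower for 0. ASNS, asparagine synthetase, read 9.68, 9.61 and 10.02 in SKN, 8.25, 6.44 and 7.75 in Brain and 10.02, 9.96 and 9.72 in Fibroblast. The Brain arrays spread widely and still lay below all others. In Brain it was lower than in Fibroblast (-2.42 ± 0.40, adjusted p 0.00355), and SKN exceeded Brain by 2.29 ± 0.40.

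The serine pathway runs from PHGDH through PSAT1 to PSPH, and its steps were not all called. PHGDH, its first enzyme, read 9.24, 9.22 and 9.15 in SKN, 8.87, 8.04 and 9.01 in Brain and 8.59, 9.53 and 8.53 in Fibroblast. No difference in it was called, and Brain and Fibroblast overlapped (-0.24 ± 0.32, 95% confidence interval -0.97 to 0.48). The 3 probe sets of PHGDH gave Brain minus Fibroblast differences of -0.26 to -0.23. PSAT1, the aminotransferase, read 11.19, 11.06 and 11.40 in SKN, 9.68, 9.76 and 9.87 in Brain and 11.22, 11.22 and 10.94 in Fibroblast, and PSPH, the phosphatase that releases serine, read 8.82, 8.69 and 9.15 in SKN, 7.51, 6.98 and 7.41 in Brain and 8.99, 8.74 and 8.75 in Fibroblast. Both parted Brain from the rest, PSAT1 at -1.36 ± 0.13 and PSPH at -1.53 ± 0.18 from Fibroblast. In SKN their differences from Fibroblast were 0.09 ± 0.13 and 0.06 ± 0.18.

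The mitochondrial folate enzymes take serine onward. SHMT2, which splits serine to glycine, read 9.24, 9.33 and 9.35 in SKN, 8.48, 8.01 and 8.29 in Brain and 9.49, 9.63 and 9.42 in Fibroblast, lower in Brain than in Fibroblast (-1.25 ± 0.13). MTHFD2, the next dehydrogenase, read 8.45, 8.20 and 8.60 in SKN, 7.48, 7.68 and 7.58 in Brain and 9.07, 9.08 and 8.96 in Fibroblast. It stepped from group to group without overlap and was called in all 3 comparisons, at -0.62 ± 0.12 for SKN and -1.46 ± 0.12 for Brain against Fibroblast and 0.84 ± 0.12 for SKN over Brain. The call between SKN and Fibroblast (adjusted p 0.0322) was kept without Brain 1 or SKN 3 and lost in the other 7 removals (up to 0.092). MTHFD1L, which releases formate from mitochondria, read 8.52, 7.80 and 8.53 in SKN, 8.40, 7.23 and 7.38 in Brain and 7.87, 8.08 and 7.98 in Fibroblast. It was not called, and Brain 1 read above every Fibroblast array. Without Brain 1, the SKN minus Brain difference of 0.61 became 0.98 and was called (adjusted p 0.028).

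PCK2, the mitochondrial phosphoenolpyruvate carboxykinase, read 8.27, 7.69 and 8.10 in SKN, 6.70, 6.24 and 6.23 in Brain and 7.70, 8.12 and 7.42 in Fibroblast, with Brain lower than Fibroblast (-1.36 ± 0.23). ALDH18A1, which begins proline synthesis from glutamate, read 7.77, 7.79 and 8.03 in SKN, 7.63, 7.24 and 7.66 in Brain and 8.28, 8.22 and 8.43 in Fibroblast, and Brain was lower (-0.80 ± 0.14). PYCR1, which finishes proline synthesis, read 7.36, 7.91 and 8.06 in SKN, 7.16, 7.37 and 7.13 in Brain and 7.39, 7.39 and 7.38 in Fibroblast. PYCR1 was not called in the 3 comparisons, but SKN exceeded Brain in it at an adjusted p of 0.0054 without SKN 1, 0.0286 with array weights and 0.0407 with the filter. The transsulfuration enzymes CBS and CTH, which turn homocysteine toward cysteine, read 5.25 to 5.88 and 4.85 to 5.67 over all arrays, and neither was called in the fit to all arrays. CTH was called for SKN over Brain without SKN 1 (adjusted p 0.0487), with array weights (0.0378) and with the filter (0.04).

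**Figure D4:**
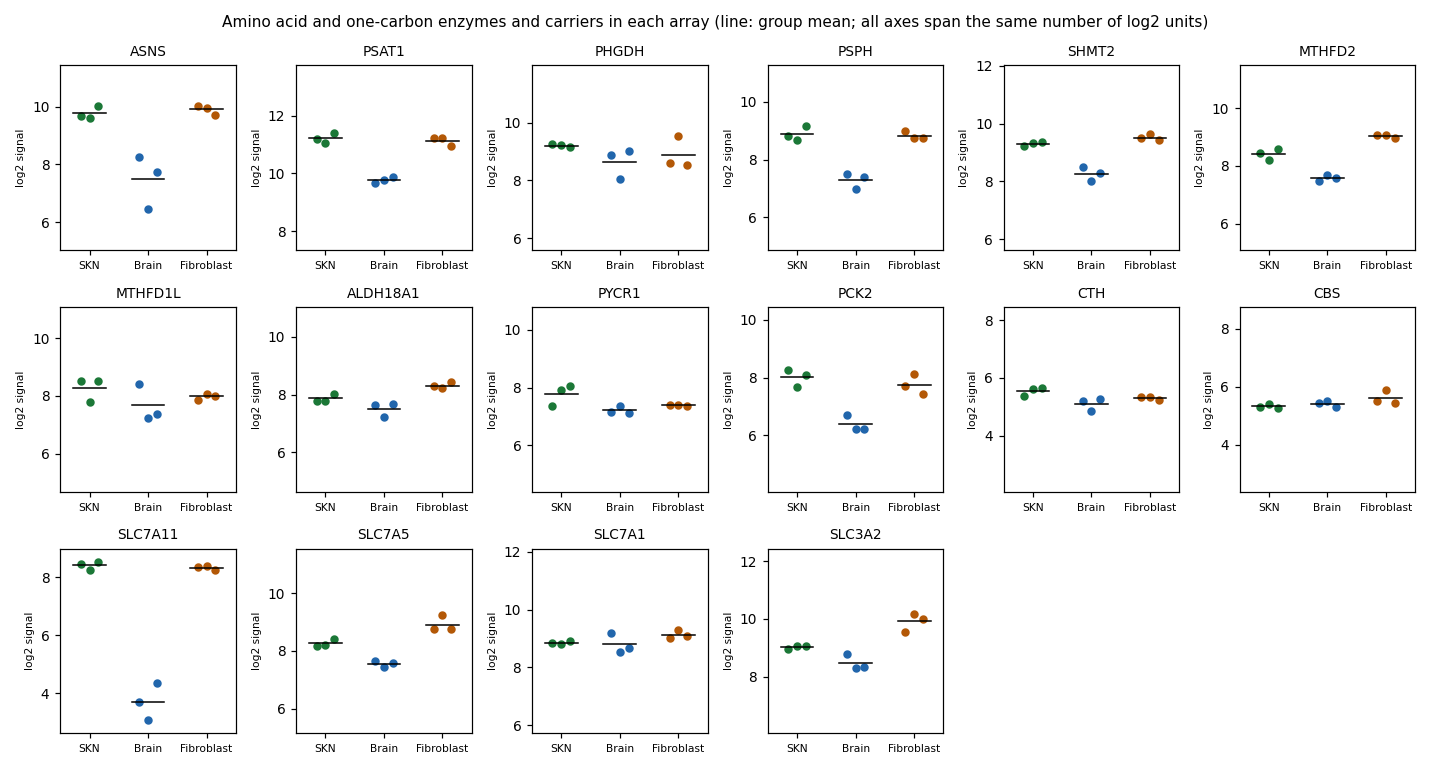
Log2 signal (vertical axis) of 12 enzymes of amino acid and one-carbon synthesis and 4 amino acid carriers in each array, replicates 1 to 3 from left to right within a group; the line is the mean of 3 arrays, and all axes span the same number of log2 units. SLC7A11 shows the largest gap between Brain and the other groups, while PHGDH, MTHFD1L, CTH, CBS and SLC7A1 overlap between Brain and Fibroblast.

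Of 4 amino acid carriers 3 were called lower in Brain than in Fibroblast, and 2 were called higher in SKN than in Brain. SLC7A11, which imports cystine in exchange for glutamate, read 8.47, 8.27 and 8.55 in SKN, 3.68, 3.05 and 4.33 in Brain and 8.37, 8.40 and 8.27 in Fibroblast. This was the largest difference among the 54 genes in both comparisons with Brain, at -4.66 ± 0.28 from Fibroblast (adjusted p 2.86e-05) and 4.74 ± 0.28 for SKN over Brain (adjusted p 1.96e-05). The SLC7A11 readings in Brain lay below the median of their arrays, where signal tracks RNA poorly, so the 26.8-fold gap between SKN and Brain is one of signal. SKN and Fibroblast differed by 0.09 ± 0.28, with a 95% confidence interval of -0.54 to 0.72.

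SLC3A2 is the heavy chain that SLC7A11 and SLC7A5 both need at the cell surface. It read 8.94, 9.06 and 9.04 in SKN, 8.78, 8.29 and 8.34 in Brain and 9.56, 10.17 and 9.99 in Fibroblast, in 3 steps without overlap. SLC3A2 was called lower than in Fibroblast in SKN (-0.89 ± 0.19, adjusted p 0.0406, up to 0.13 in the 7 removals where it was lost) and in Brain (-1.44 ± 0.19). The call in SKN was kept without Fibroblast 1 or Brain 1. SLC3A2 was also called for SKN over Brain without Brain 1 (adjusted p 0.0399) and not with all arrays. SLC7A5, the light chain for leucine and other large neutral amino acids, read 8.18, 8.19 and 8.41 in SKN, 7.63, 7.45 and 7.59 in Brain and 8.75, 9.23 and 8.74 in Fibroblast, in the same order. SLC7A5 was lower in Brain than in Fibroblast (-1.35 ± 0.15), and SKN differed by -0.65 ± 0.15, which was not called (adjusted p 0.0599). The SLC7A5 call between SKN and Brain (0.70 ± 0.15) ended without Brain 2 or SKN 3 (adjusted p up to 0.0596). SLC7A1, the carrier of arginine and lysine, read between 8.54 and 9.30 on all arrays and was not called. Without Brain 1, its Brain minus Fibroblast difference of -0.34 became -0.54 and was called (adjusted p 0.0191).

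Of the 7 tRNA ligases and the tRNA exporter XPOT, 7 of 8 genes were called lower in Brain than in Fibroblast, and 5 were called higher in SKN than in Brain. The differences between Brain and Fibroblast ran from -0.90 to -1.24 for the 6 ligases that were called. WARS1, for tryptophan, read 10.29, 9.76 and 10.10 in SKN, 8.91, 8.79 and 8.83 in Brain and 10.12, 10.21 and 9.93 in Fibroblast, and GARS1, for glycine, read 9.94, 9.74 and 9.93 in SKN, 8.90, 8.68 and 8.84 in Brain and 9.85, 9.96 and 9.68 in Fibroblast. In both, SKN and Fibroblast overlapped and Brain stood about 1 unit lower (-1.24 ± 0.15 and -1.02 ± 0.12). NARS1, for asparagine, read 9.75, 9.76 and 9.77 in SKN, 9.40, 8.96 and 9.08 in Brain and 10.07, 10.02 and 10.09 in Fibroblast.

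EPRS1, which charges glutamate and proline, read 9.50, 9.71 and 9.92 in SKN, 9.22, 9.23 and 9.11 in Brain and 10.11, 10.10 and 10.03 in Fibroblast. In NARS1 and EPRS1 the 3 groups did not overlap, with SKN between the others. SARS1, for serine, read 8.72, 8.54 and 8.89 in SKN, 8.36, 7.87 and 8.00 in Brain and 8.91, 9.05 and 9.11 in Fibroblast, and AARS1, for alanine, read 8.54, 8.58 and 8.70 in SKN, 8.70, 8.09 and 8.14 in Brain and 9.18, 9.46 and 9.10 in Fibroblast. Within Brain the highest reading of both was in Brain 1. Without Brain 1, AARS1 was called in SKN against Brain (0.49 in place of 0.30, adjusted p 0.0489) and in SKN against Fibroblast (-0.64, adjusted p 0.0344). MARS1, for methionine, did not part the groups, with 7.44 to 7.82 in SKN, 7.43 to 7.89 in Brain and 7.70 to 7.88 in Fibroblast. XPOT, which carries tRNA out of the nucleus, read 9.56, 9.56 and 9.56 in SKN, 9.23, 9.32 and 9.40 in Brain and 9.71, 9.84 and 9.67 in Fibroblast and was lower in Brain (-0.42 ± 0.09). The 5 calls between SKN and Brain became 3 without Brain 3 or without SKN 3, where SARS1 and EPRS1 were lost, and 2 without Fibroblast 1 and Brain 3 together.

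Of the chaperones and quality control genes of the endoplasmic reticulum 9 of 13 were called lower in Brain than in Fibroblast and 0 higher, while SKN and Fibroblast gave 0 calls, with 2 at an unadjusted p under 0.05 in limma, against 3197 of 15947 named genes. EDEM1 became a call there without Fibroblast 1 (-0.66, adjusted p 0.0336). HSPA5, or BiP, the main chaperone and the repressor of the 3 sensors, read 11.10, 11.10 and 11.30 in SKN, 10.38, 10.38 and 10.45 in Brain and 11.49, 11.18 and 11.19 in Fibroblast. Brain lay below all other arrays, at -0.88 ± 0.12 from Fibroblast (adjusted p 0.00136), and SKN exceeded Brain by 0.76 ± 0.12. SKN and Fibroblast differed in HSPA5 by -0.12 ± 0.12, with a 95% confidence interval of -0.39 to 0.15.

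In HSP90B1, CALR, PDIA4, PDIA6 and MANF the group means lay closer together than in HSPA5. HSP90B1, the HSP90 of the endoplasmic reticulum, read 11.53, 11.39 and 11.53 in SKN, 11.21, 11.10 and 11.34 in Brain and 11.68, 11.40 and 11.40 in Fibroblast, without a call. CALR, the calcium-binding lectin chaperone, read 11.08, 10.72 and 10.91 in SKN, 10.97, 10.68 and 10.80 in Brain and 10.82, 10.45 and 10.62 in Fibroblast, highest in SKN by mean and lowest in Fibroblast. PDIA4, a disulfide isomerase, read 10.48, 10.29 and 10.38 in SKN, 10.11, 9.76 and 10.06 in Brain and 10.17, 10.00 and 9.88 in Fibroblast, and its Brain and Fibroblast arrays overlapped. Its relative PDIA6 read 9.74, 9.58 and 9.75 in SKN, 9.14, 8.86 and 9.12 in Brain and 9.89, 9.45 and 9.59 in Fibroblast and was called lower in Brain (-0.60 ± 0.14, adjusted p 0.0171, 0.057 without Brain 2). MANF, a secreted protein released under endoplasmic reticulum stress, lay between 6.47 and 7.43 and was not called.

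DNAJB9, DNAJC3, HERPUD1, SEL1L, EDEM1, HYOU1 and SDF2L1 were among the 9 of 13 genes called lower in Brain than in Fibroblast. Over all named genes 13.2% were. These cochaperones of BiP and disposal genes are set together for description and were not a group fixed beforehand. DNAJB9, a target of spliced XBP1, read 8.36, 9.32 and 9.26 in SKN, 7.57, 7.62 and 7.43 in Brain and 9.05, 8.77 and 8.86 in Fibroblast. Brain was lower than Fibroblast (-1.35 ± 0.24) and SKN exceeded Brain by 1.44 ± 0.24. DNAJC3, which also restrains PERK, read 8.91, 9.30 and 9.18 in SKN, 7.68, 7.91 and 8.07 in Brain and 8.93, 8.82 and 8.93 in Fibroblast, at -1.01 ± 0.14 in Brain against Fibroblast and 1.24 ± 0.14 in SKN against Brain. HERPUD1, an organizer of the retrotranslocation complex, read 9.50, 9.54 and 9.65 in SKN, 7.99, 8.34 and 8.49 in Brain and 9.72, 9.75 and 9.59 in Fibroblast and had the largest difference of the 13 between Brain and Fibroblast (-1.41 ± 0.14, adjusted p 0.000318).

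SEL1L, the partner of the ubiquitin ligase of this pathway, read 9.33, 9.61 and 9.71 in SKN, 9.15, 9.04 and 9.06 in Brain and 9.78, 9.90 and 9.67 in Fibroblast, and EDEM1, a mannosidase that marks glycoproteins for disposal, read 7.73, 7.67 and 7.75 in SKN, 7.32, 7.53 and 7.30 in Brain and 7.81, 8.37 and 8.37 in Fibroblast. Brain was lower than Fibroblast in both (-0.70 ± 0.12 and -0.80 ± 0.16). HYOU1, the nucleotide exchange factor of BiP, read 9.26, 9.35 and 9.69 in SKN, 8.86, 7.90 and 8.45 in Brain and 9.86, 9.40 and 9.53 in Fibroblast, and SDF2L1, a cofactor of BiP, read 6.06, 6.86 and 6.56 in SKN, 5.57, 5.68 and 5.12 in Brain and 6.52, 6.05 and 6.40 in Fibroblast. Both were called lower in Brain (-1.20 ± 0.25 and -0.87 ± 0.24). The SDF2L1 call ended without Fibroblast 1, Fibroblast 3, Brain 1, Brain 3 or SKN 3 (adjusted p up to 0.103). Of the 8 calls of chaperone and quality control genes between SKN and Brain, 5 were made without Brain 2, without Brain 3 or without SKN 2, and 4 without SKN 3. The calls of SEL1L (in 6 removals), HYOU1 (4), SDF2L1 (3) and PDIA6 (2) were the ones lost. The 9 between Brain and Fibroblast became 4 when Fibroblast 1 and Brain 3 were both left out.

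Arrays of 1 group also differed from each other, in Fibroblast along the same arms. Among the Fibroblast arrays, Fibroblast 2 was the highest of its group for 9 of 10 stress effectors, 9 of 12 synthesis enzymes and 4 of 4 carriers, but for 2 of 13 chaperone and quality control genes. Fibroblast 1 was highest for 9 of those 13 and for 0 of the 10 effectors. Among the SKN arrays SKN 3 was highest for 35 of the 54 genes, in both arms. Brain 1 was highest of its group for 6 of 8 tRNA ligase and export genes, 3 of 4 carriers and 6 of 13 chaperone and quality control genes. It was highest for 5 of 12 synthesis enzymes, 3 of 10 stress effectors and 2 of 7 sensors and transcription factors. These are single arrays and no test was made between them.

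Genes of the same pathways outside the list were counted to set the 54 beside. Over all named genes 13.2% were called lower in Brain than in Fibroblast and 13.8% higher. For SKN over Brain 10.9% of named genes were called higher and 11.7% lower. Of 12 other cytosolic tRNA ligases 3 were called lower in Brain than in Fibroblast (25%) and 1 higher (8.33%), with a median difference of -0.23. CARS1, for cysteine (-1.08 ± 0.13), and TARS1, for threonine (-0.88 ± 0.12), had the largest. For SKN over Brain 4 were called higher and 0 lower, led by CARS1 (0.94 ± 0.13) and TARS1 (0.75 ± 0.12). Of 12 other amino acid carriers 5 were called lower in Brain than in Fibroblast and 0 higher. The arginine carrier SLC7A2 (-2.53 ± 0.55) and the glycine carrier SLC6A9 (-2.52 ± 0.22) led them. For SKN over Brain 3 were higher, led by SLC6A9 (2.51 ± 0.22) and the glutamine carrier SLC1A5 (1.06 ± 0.17).

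Of 11 other amino acid and one-carbon enzymes 3 were called higher in Brain than in Fibroblast (27.3%) and 1 lower (9.09%). Among named genes 13.8% and 13.2% were. GPT2, the mitochondrial alanine aminotransferase, was higher in Brain, at 5.94, 5.92 and 6.31 in SKN, 8.60, 8.36 and 7.90 in Brain and 6.26, 6.22 and 5.50 in Fibroblast (2.29 ± 0.25 against Fibroblast). SHMT1, the cytosolic counterpart of SHMT2, was higher in Brain as well, at 4.84, 4.57 and 4.73 in SKN, 7.58, 6.35 and 6.93 in Brain and 5.21, 4.86 and 4.43 in Fibroblast (2.12 ± 0.30). The cytosolic and mitochondrial forms of this enzyme thus differed in opposite directions between the same arrays. SHMT1 lay below the array median in Fibroblast 3 (4.43) and SKN 2 (4.57), so its differences rest partly on signal near the low end. For SKN over Brain 2 were higher (18.2%) and 3 lower (27.3%), against 10.9% and 11.7% of named genes. SHMT1 (-2.24 ± 0.30) and GPT2 (-2.23 ± 0.25) had the largest differences. ALDH1L2, a mitochondrial folate enzyme, was the 1 called lower in Brain than in Fibroblast (-1.46 ± 0.12). It was named after its values were seen.

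Of 26 other endoplasmic reticulum folding and degradation genes 11 were called lower in Brain than in Fibroblast and 0 higher, with a median of -0.37. ERO1A, the oxidase that drives disulfide formation (-1.77 ± 0.28), and SEC61B, of the translocation channel (-1.41 ± 0.13), led them. For SKN over Brain 7 were higher and 0 lower, led by EDEM2 (1.14 ± 0.16) and SEC61B (1.06 ± 0.13). Between SKN and Fibroblast ERO1A was lower (-1.28 ± 0.28) and DNAJC10, a disulfide reductase, higher (0.46 ± 0.09). Each is 3.85% of the list, where 2.10% of named genes were lower and 2.45% higher. Of 14 cytosolic and mitochondrial chaperones 1 was called lower in Brain than in Fibroblast (HSPA4, -0.93 ± 0.18) and 1 higher (the HSP40 protein DNAJB1, 1.30 ± 0.11), with a median of -0.03. Each is 7.14% of the list, under the 13.2% and 13.8% of named genes. DNAJB1 was also called between SKN and Fibroblast (0.75 ± 0.11) and between SKN and Brain (-0.54 ± 0.11).

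Of 11 genes of the other eIF2 kinases and the eIF2 cycle 2 were called lower in Brain than in Fibroblast (18.2%) and 1 higher (9.09%). These shares lie near the 13.2% and 13.8% of named genes. The largest called differences were in the eIF2 subunit EIF2S2 (-0.78 ± 0.13) and the kinase EIF2AK1 (0.47 ± 0.14). For SKN over Brain 1 was higher, EIF2S2 (0.71 ± 0.13), and 1 lower, EIF2B4 (-0.46 ± 0.11). Each is 9.09% of the list, near the 10.9% and 11.7% of named genes. Of 5 other bZIP factors of the response 1 was called lower in Brain than in Fibroblast (20%) and 0 higher, against 13.2% and 13.8% of named genes. For SKN over Brain 1 was higher and 1 lower, each 20% of the list, against 10.9% and 11.7% of named genes. CEBPG, a partner of ATF4, was the 1 lower in Brain than in Fibroblast (-1.34 ± 0.14), and SKN exceeded Brain in it by 1.01 ± 0.14. ATF3, a stress-induced repressor, read 6.65, 5.01 and 4.95 in SKN, 7.59, 7.45 and 6.84 in Brain and 6.54, 7.16 and 6.78 in Fibroblast, and was the other factor called, lower in SKN than in Brain (-1.76 ± 0.44). Between SKN and Fibroblast 0 genes of these 5 smaller lists of ligases, carriers, enzymes, eIF2 genes and bZIP factors were called, with 2 of 12, 3 of 12, 1 of 11, 0 of 11 and 2 of 5 at an unadjusted p under 0.05 in limma, against 3197 of 15947 named genes.

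**Figure D5:**
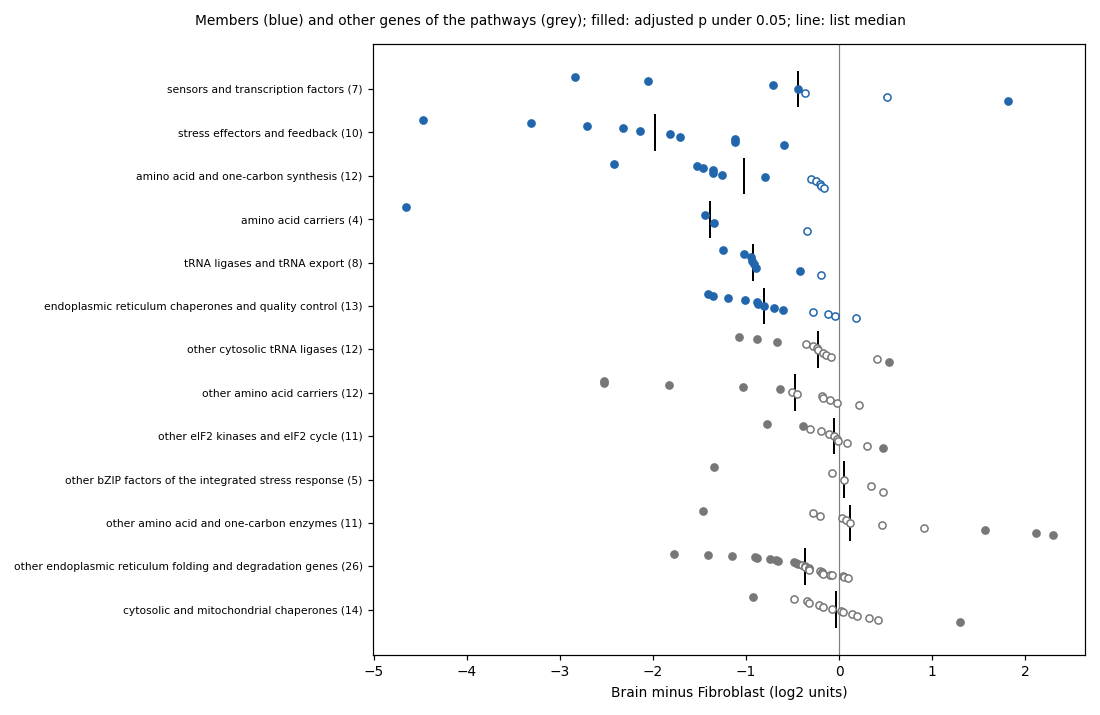
Brain minus Fibroblast difference in log2 units (horizontal axis) of the 54 members by role (blue) and of 7 lists of other genes of the same pathways (grey), with the number of genes in each list in parentheses. Filled points have an adjusted p under 0.05, and the vertical line is the median of a list, at -1.98 for stress effectors, -0.80 for chaperone and quality control members and -0.03 for cytosolic and mitochondrial chaperones.

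Other features of the cultures moved with the groups. Cell cycle genes were called higher in Brain than in Fibroblast for 7 of 8, with list means of 7.72 to 8.89 in Brain and 4.55 to 6.34 in Fibroblast. Within SKN, SKN 1 had a cell cycle mean of 7.54 and a mean over the 54 stress genes of 8.40, against 8.44 and 8.60 in SKN 2 and 3, whose cell cycle means were 4.44 and 5.12. Of 10 fibroblast matrix genes 9 were called lower in Brain than in Fibroblast, with list means of 5.02 to 6.78 in Brain and 10.38 to 10.70 in Fibroblast. Over all named genes 13.8% were called higher in Brain than in Fibroblast and 13.2% lower. SKN had matrix means of 10.75 to 11.02, and 0 of the 10 were called between SKN and Fibroblast. Brain 3, with the highest matrix mean of its group, had a stress gene mean of 7.62, between the 7.50 and 7.71 of the other Brain arrays. The part of cell cycle and matrix expression in these results was not tested. Without Fibroblast 1 and Brain 3 together, the calls were 31 between Brain and Fibroblast (30 lower), 23 between SKN and Brain (22 higher) and 2 between SKN and Fibroblast. Without SKN 1 they were 41, 32 and 1.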

How the data were processed

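The deposited table holds log2 signals of 32205 probe sets on 9 arrays, normalized by the authors. The submitters' processing notes name MAS5, RMA and Partek without role, order or version. The base of the logarithm was inferred from the range (0.561 to 13.47) and the near-equal quartiles of the arrays. Of the probe sets, 16545 carried 1 symbol, 370 several and 15290 no entry in the platform annotation. The dog RefSeq table (UU_Cfam_GSD_1.0) matched 15820 gene identifiers and served for names alone. The values entered limma 3.58.1 (R 4.3.3) as deposited, with no filter. The linear model held a mean for each of the 3 groups over the 9 arrays (6 residual and 2.41 prior degrees of freedom), and 2-sided p-values were adjusted by Benjamini-Hochberg across the whole table. For arrays, their number limits the precision. The members, role groups and other lists were chosen with earlier results of these data known. Values in every array were due for ATF4, ATF6, EIF2AK3, ERN1, XBP1, DDIT3 and HSPA5, for the leading called members of each role group and for members whose SKN mean lay between the others. In each other list the 2 called genes with the largest difference in a comparison were named. The fit was tested on simulated data. Promoter and protein sequences were not used here.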

Additional observations from a re-analysis of the deposited data

How the results depend on the processing

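The count of members called between SKN and Fibroblast, 4, depended on most settings. It was 1 without variance moderation, 1 with the replicate block, 2 when only those 6 arrays were fitted, 2 without Fibroblast 1 and Brain 3, and 9 after a filter that dropped every probe set with a mean under the middle value of all, where fewer tests share the adjustment. Removals of 1 array gave 1 to 4. The counts between Brain and Fibroblast (41) and SKN and Brain (30), and the 40 called over the 3 groups, stayed within 1.5 times under every alternative run. Removals gave 37 to 41, 23 to 32 and 35 to 40. With the replicate block they were 39, 29 and 38. Array weights, a trended robust prior, quantile normalization, equal medians and the other probe sets of PHGDH gave 40 or 41 between Brain and Fibroblast and 29 to 35 between SKN and Brain. Without moderation they were 37 and 29, with only the 6 arrays compared 39 and 26, and with the filter 42 and 35. By role, the filter took the effectors lower in SKN than in Fibroblast to 5, against 2, and fitting only the 6 arrays took ligases higher in SKN than in Brain to 3, against 5. No call of a member changed direction under any alternative. Calls that held in all 9 removals numbered 36 of 41, 23 of 30 and 1 of 4. Deviations of same-numbered arrays correlated weakly, at -0.045 to 0.145, yet 6 of 9 arrays correlated best with their own number. Whether the replicate numbers mark pairs cannot be settled from so few arrays. With 3 arrays a group and no detection calls, small differences of dim genes are not resolved.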
